A study of Mus musculus with 3 samples.

Results

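Ether lipid synthesis and platelet-activating factor (PAF) were described here through 9 genes of the 19059 that each library measured: Gnpat, Agps, Far1 and Far2 for plasmalogen synthesis, Lpcat1 and Lpcat2 for PAF synthesis, Pla2g7 and Pafah1b2 for PAF breakdown, and Ptafr for the PAF receptor. The genes were selected by symbol with earlier results of these libraries known, among them that Pla2g7 led the genes higher in the null library, so its difference between libraries is a description and supports nothing. All 9 had the minimum of 5 CPM over all cells, CPM being the UMIs of a gene scaled to the same total in every sum of cells. The cells were viable, CD45-positive liver cells from mice at postnatal day 0, sorted by flow cytometry, fixed, and measured with gene-specific probes that count unique molecular identifiers (UMIs). There were 3 libraries, 1 each for Pex2 +/+ (labelled WT), Pex2 -/+ (labelled Het) and Pex2 -/- (labelled KO), all of the same age, tissue and sort. The sources used here state neither how many animals went into a library nor what the null allele is. With 1 library per genotype no difference could be tested, and every interval below is a 95% interval for counting error only.

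Plasmalogens are membrane phospholipids whose first carbon chain is held by a vinyl ether bond. Their synthesis starts inside the peroxisome, where GNPAT puts an acyl group on dihydroxyacetone phosphate and AGPS swaps it for a fatty alcohol made by FAR1 or FAR2 at the peroxisome surface, and it ends in the endoplasmic reticulum. PEX2 is a peroxisomal membrane protein that helps recycle the receptor bringing such enzymes in. PAF is an ether phospholipid with an acetyl group, made in activated leukocytes by remodelling of ether lipids. LPCAT2 and LPCAT1 add the acetyl group, the secreted enzyme PLA2G7 and the cytosolic PAFAH1B complex remove it, and PTAFR is the receptor through which PAF acts on neutrophils, monocytes and other cells.

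The libraries labelled WT, Het and KO held 9600, 8000 and 8245 barcodes with medians of 8218.5, 15558.5 and 19348 UMIs, so depth was lowest in labelled WT and highest in labelled KO. The full barcodes shared by any pair of libraries numbered 0. Their first 16 bases were shared in 1147 cases between labelled WT and Het, 1184 between WT and KO and 961 between Het and KO. Pex2 stood at 23.6 CPM for labelled WT, 53.3 for labelled Het and 0.0107 for labelled KO, so the KO label goes with its value while the order of the others goes against theirs, and each library is called by its label throughout. The Y-linked Ddx3y was at 82.3 CPM in the library labelled WT and at 0.0138 and 0.0161 in the others, so sex of the animals and label cannot be told apart in comparisons with labelled WT, while labelled Het and KO were alike in this gene. The medians of the ratios over all 9351 genes tested were -0.16 on the log2 scale for labelled KO over WT and -0.19 for labelled KO over Het. With TMM scaling the same medians were 0.12 and 0.16, and the share of calls that were higher went from 15.6% to 59.8%, so small differences depend on how the libraries are scaled.

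Over all cells, Pla2g7 was the only member called higher in the library labelled KO, and 0 members were called lower. A call needed a 1.5-fold difference from both other libraries with both intervals excluding 1, a rule that called 2.93% of all genes tested higher and 15.8% lower. The median log2 ratios of the members were 0.16 (KO over WT) and 0.05 (KO over Het). The gap between the control libraries is the only gauge of differences that come without loss of both alleles, and Far2 passed 1.5-fold in it. Whether fewer cells of a type or less RNA per cell lies behind a value over all cells cannot be told apart there.

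**Figure D1:**
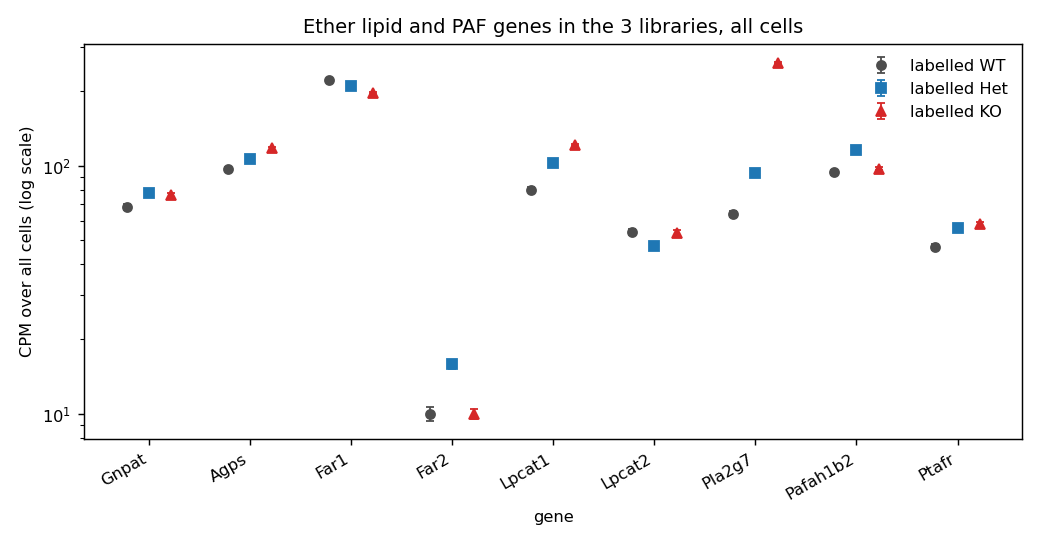
CPM of the 9 genes over all cells of each library on a log axis, with 95% Poisson intervals as bars where they exceed the symbols. Pla2g7 at 260 CPM in the library labelled KO is the point farthest from its controls, at 63.9 and 93.9.

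Among the genes of plasmalogen synthesis, Gnpat (chr8:124863033-124890057, GRCm38), the first enzyme of the pathway, was at 68.2, 77.9 and 76.4 CPM in the libraries labelled WT, Het and KO. Agps (chr2:75832177-75931350), the enzyme that makes the ether bond, was at 97.0, 106 and 117 CPM. The libraries labelled Het and KO were close for Gnpat. Agps was highest in labelled KO in all 7 scalings and cell sets, by 1.21-fold over labelled WT and 1.105-fold over labelled Het. Neither gene reached 1.5-fold against either control. Far1 (chr7:113513834-113571511), the rate-limiting fatty acyl-CoA reductase, whose stability responds to plasmalogen levels, was at 222, 211 and 197 CPM. It was lowest in the library labelled KO in 5 of 7 scalings and cell sets, and highest with TMM and median-of-ratios scaling. Far2 (chr6:148047259-148182758), the second reductase, was at 9.97, 15.8 and 9.94 CPM, with the library labelled Het above the others. None of these 4 genes differed from both controls by 1.5-fold over all cells.

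For PAF synthesis, Lpcat1 (chr13:73467197-73516422), an acyltransferase that also makes saturated phosphatidylcholine, was at 80.0, 102 and 121 CPM. It was highest in the library labelled KO in all 7 scalings and cell sets, by 1.51-fold over labelled WT but 1.19-fold over labelled Het. With TMM scaling the log2 ratios were 0.88 and 0.59, and Lpcat1 was then called higher too. Lpcat2 (chr8:92855339-92919279), the inducible PAF acetyltransferase of phagocytes, was at 53.9, 47.4 and 53.8 CPM, the same at both ends.

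For PAF breakdown and reception, Pla2g7 (ENSMUSG00000023913, chr17:43568098-43612201) was 4.07-fold above labelled WT (3.97 to 4.18) and 2.77-fold above labelled Het (2.72 to 2.82) over all cells. The library labelled Het was itself 1.47-fold above that labelled WT. Pafah1b2 (chr9:45962859-46012690, minus strand), a catalytic subunit of the cytosolic acetylhydrolase, was at 94.0, 116 and 97.4 CPM. Ptafr (chr4:132564067-132582683) was at 47.0, 56.2 and 58.1 CPM. Neither of these moved by 1.5-fold, and in both the library labelled Het was above that labelled WT.

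Where each gene was found was read from 10 classes of cells, each named from markers and called like the named type. Of these, 5 had at least 50 cells in each library and were compared: neutrophil lineage (6052, 5056 and 5379 cells), monocyte (797, 753 and 1221), B lineage (1883, 1261 and 887), erythroid (111, 246 and 134), and basophil and mast (72, 74 and 57). Values in the other classes, such as macrophage (60, 44 and 95), are given as levels, with folds for Lpcat2 in macrophage-like cells under a minimum of 40 cells, which was chosen after seeing the data.

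By whole classes, Pla2g7 was highest in macrophage-like cells, at 880, 1645 and 4576 CPM in the libraries labelled WT, Het and KO, with no overlap with the next class. Single clusters of other classes could lie higher. Monocyte-like cluster 17 was at 1179 CPM in labelled WT. Late neutrophil cluster 20, described below, lay above macrophage-like cells in labelled WT and Het. Next by class came monocyte-like cells at 239, 416 and 734 CPM, and MHC class II high cells at 39.9, 145 and 605. The latter had 59, 82 and 21 cells with 30, 205 and 212 Pla2g7 UMIs. Basophil- and mast-like cells followed at 144, 104 and 377. Neighbours among these 3 classes overlapped. The MHC class II high class was not free of dendritic cells. Its largest cluster, 23, had Itgae, Clec9a, Naaa and Cadm1, markers of type 1 conventional dendritic cells, among its top 10 genes. Cluster 40 of this class had the monocyte markers Ccr2 and S100a4 among its top 10. Neutrophil-lineage cells were at 34.4, 41.1 and 97.3 CPM, and B-lineage cells were lowest by the mean of the 3 libraries, at 3.59, 6.76 and 10.8, overlapping with erythroid-like and eosinophil-like cells. After each cell was thinned to 3000 UMIs, a Pla2g7 UMI was seen in 39.2%, 53.1% and 73.6% of monocyte-like cells (exact Clopper-Pearson intervals 35.8% to 42.7%, 49.4% to 56.8% and 71.0% to 76.1%). Unthinned, these shares were 62.2%, 82.3% and 93.6%. B-lineage cells serve only as a rough level for comparison, since free RNA was not measured. Their thinned shares were 0.826%, 1.51% and 1.32% (11, 18 and 10 cells), with 551, 72 and 130 shallower cells left out. Median depths were 4098, 7305 and 5646 UMIs in B-lineage cells, against 13884, 22734 and 26073 in monocyte-like cells. The B-lineage level was not uniform, at 6.04 CPM in cluster 9 and 24.2 in cluster 7 of labelled KO. Of the 5842, 12874 and 44761 Pla2g7 UMIs in barcodes left after removal of doublets, monocyte-like cells held 51.5%, 58.9% and 56.0%, neutrophil-lineage cells 35.5%, 29.1% and 27.4%, and macrophage-like cells 8.34%, 6.62% and 14.3%.

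**Figure D2:**
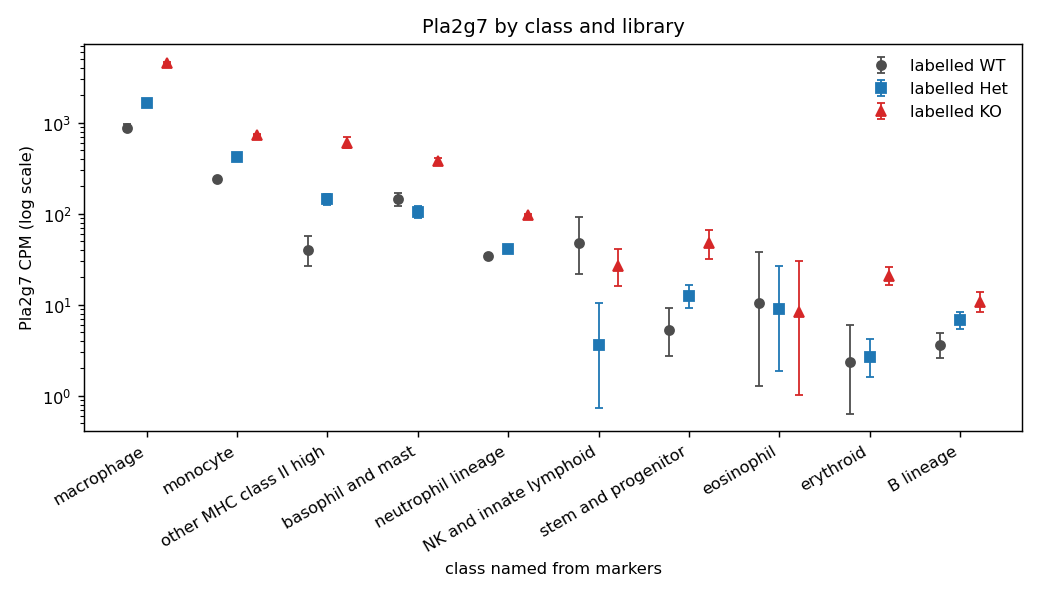
Pla2g7 CPM in each class and library on a log axis, with 95% Poisson intervals, classes ordered by the mean of the 3 libraries. The library labelled KO is highest in every class shown but eosinophil-like and natural killer and innate lymphoid-like cells, where 2 to 19 UMIs stand behind each value.

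The other members had their own places. Far2 was at 124, 191 and 193 CPM in basophil- and mast-like cells and at 94.5, 151 and 41.6 in eosinophil-like cells, while B-lineage cells had 0.525, 0.608 and 0.168. As whole classes, basophil- and mast-like and eosinophil-like cells stood apart from all others for Far2 without overlap. Within the neutrophil lineage, however, granulocyte precursor cluster 10 was at 55.6, 67.2 and 58.2 CPM, inside the range of eosinophil-like cells. Lpcat2 was also highest in basophil- and mast-like cells, at 153, 145 and 180 CPM, and overlapped there with eosinophil-like cells at 105, 72.4 and 158. Agps was highest in eosinophil-like cells at 184, 266 and 246 CPM, above the neutrophil lineage as a whole at 108, 118 and 123 without overlap. Precursor cluster 10 of that lineage was at 173.5, 186.5 and 247.5 CPM and did overlap. Ptafr was highest in the neutrophil lineage at 56.7, 68.0 and 67.7 CPM and in monocyte-like cells at 53.0, 66.0 and 41.7, and these overlapped. Far1 was lowest in macrophage-like cells at 86.8, 69.5 and 69.6 CPM, below every other class. For Gnpat all 9 neighbouring pairs in the order of classes overlapped, and for Far1 and Pafah1b2 8 of 9 did.

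Within the 5 classes compared, 42 of 45 pairs of a member and a class had enough UMIs, all but Far2 and Ptafr in B-lineage cells and Far2 in monocyte-like cells. Of the 42 pairs, 7 were called higher in the library labelled KO and 0 lower, and Pla2g7 gave 5 of the 7. After thinning to 3000 UMIs, 2 of these 7 pairs were still called, Pla2g7 in monocyte-like and in neutrophil-lineage cells. Beside them stand the shares of all genes called higher and lower: 2.9% and 11.6% in the neutrophil lineage, 5.5% and 11.2% in monocyte-like, 9.54% and 13.7% in B-lineage, 6.94% and 10.4% in erythroid-like, and 7.78% and 5.48% in basophil- and mast-like cells. By fold alone, in either direction and with no condition on intervals, labelled Het passed 1.5-fold against labelled WT in 7 of the 42 pairs. The same count was 11 for labelled KO over WT and 9 for labelled KO over Het. Shares of all genes under this looser rule were not computed, and the shares above do not apply to it. The cells of labelled KO mostly lay in clusters of their own: cluster 6 held 96.4% of its monocyte-like cells against 0.502% and 5.05% in the controls, and clusters 3, 5 and 13 held 32.5%, 24.3% and 17.7% of its neutrophil lineage. A cluster mostly of 1 library may be that library rather than a type.

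**Figure D3:**
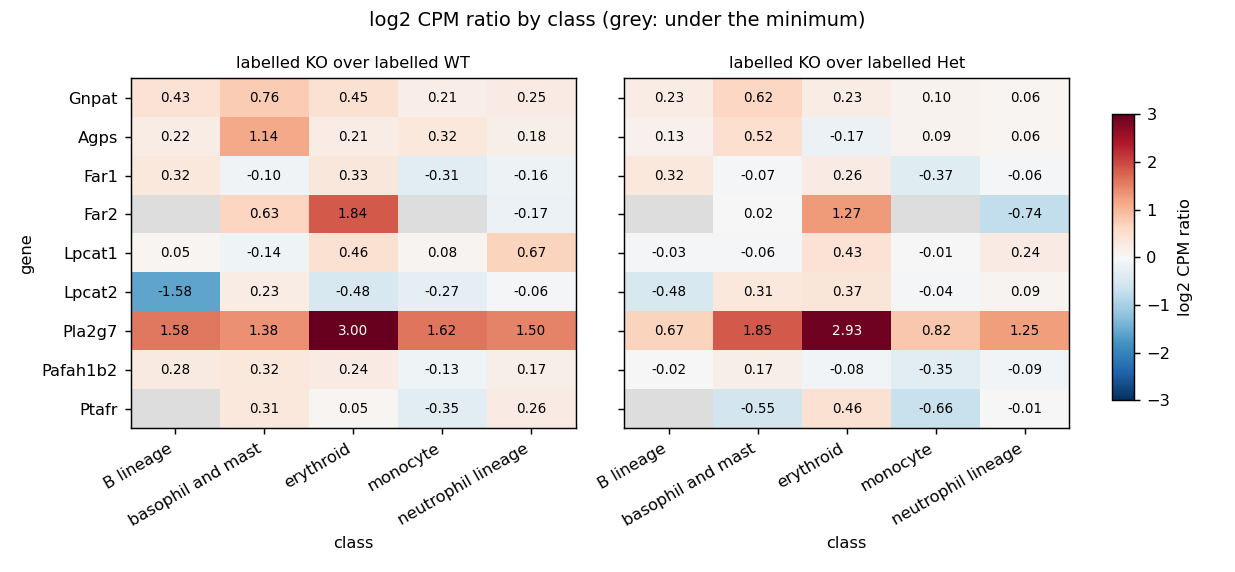
log2 CPM ratios of labelled KO over labelled WT (left) and over labelled Het (right) for the 9 genes in the 5 classes compared, printed in each cell and coloured from blue (lower) to red (higher), grey where UMIs were under the minimum. The Pla2g7 row is above 0 in all 10 cells, from 0.67 to 2.995.

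Pla2g7 was 2.83-fold above labelled WT (2.70 to 2.96) and 2.37-fold above labelled Het (2.29 to 2.46) in the neutrophil lineage. In monocyte-like cells it was 3.07-fold (2.95 to 3.19) and 1.77-fold (1.72 to 1.81) above them, while labelled Het was already 1.74-fold above labelled WT. In basophil- and mast-like cells the folds were 2.61 (2.16 to 3.18) and 3.61 (3.04 to 4.30). After thinning to 3000 UMIs the log2 ratios there went from 1.38 and 1.85 to 0.39 and 0.94, the call was lost, and 31.9%, 13.5% and 37.5% of these cells had a Pla2g7 UMI. Markers of other cells moved with these values: 11 monocyte markers summed to 85.3, 95.0 and 258 CPM in the neutrophil lineage, and 10 late neutrophil markers to 972, 809 and 2118 CPM in basophil- and mast-like cells, where Il1b was at 0 in each library. Their part in the result was not tested. The 15 macrophage markers summed to 437, 521 and 376 CPM in monocyte-like cells and to 301, 306 and 269 in the neutrophil lineage, lowest in the library labelled KO. In basophil- and mast-like cells they summed to 116, 124 and 202 CPM, highest in labelled KO, with Vsig4, Timd4 and Folr2 at 0 in each library, and the monocyte markers there to 672, 462 and 504 CPM. Late neutrophil markers in monocyte-like cells summed to 2727, 2834 and 4148 CPM, also highest in labelled KO. The part of these in the result was not tested either.

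The calls in the classes with little Pla2g7 rested on few UMIs. Erythroid-like cells had 4, 19 and 78 UMIs, or 2.34, 2.69 and 20.9 CPM. In cluster 18, which held 79.3%, 87.4% and 85.8% of these cells, the level was 2.46, 2.40 and 12.1 CPM. B-lineage cells had 41, 89 and 64 UMIs, and with cells thinned to 3000 UMIs the log2 ratio of labelled KO over Het there turned from 0.67 to -0.51. The B-lineage call was also lost at the finer clustering resolution of 2.0, where labelled KO was lowest in B-lineage cluster 11 (8.89, 5.27 and 3.145 CPM) and in cluster 13 (2.26, 4.27 and 1.999 CPM). Within B-lineage clusters the library labelled KO was highest in cluster 7 (2.57, 7.11 and 24.2 CPM) and lowest in cluster 9 (9.64, 6.42 and 6.04 CPM). The 11 monocyte markers summed to 186, 189 and 309 CPM in B-lineage cells and to 126, 38.0 and 151 in erythroid-like cells, and their part was not tested.

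Gnpat and Far2 also made calls, each in 1 class. Gnpat in basophil- and mast-like cells was at 88.7, 98.2 and 151 CPM, 1.70-fold (1.31 to 2.22) and 1.54-fold (1.24 to 1.90) above the controls on 88, 175 and 184 UMIs. With TMM scaling this pair missed 1.5-fold. Agps in the same cells stood at 47.4, 73.5 and 105 CPM, highest in labelled KO but 1.43-fold above labelled Het. Far2 in erythroid-like cells was at 5.86, 9.08 and 21.9 CPM, 3.75-fold (1.94 to 8.11) and 2.42-fold (1.72 to 3.41) above the controls on 10, 64 and 82 UMIs. In macrophage-like cells, which had 44 cells in the library labelled Het, Lpcat2 was at 95.8, 112 and 44.5 CPM on 53, 58 and 62 UMIs, 0.464-fold (0.317 to 0.683) and 0.397-fold (0.273 to 0.578) of the controls. The call rule, with a minimum of 40 cells, called 10.1% of genes higher and 6.39% lower there. Nearly all macrophage-like cells of the library labelled KO (91 of 95) were in cluster 22, and those of the controls were in clusters 34 and 36, so the Lpcat2 and Pla2g7 values there compare different clusters. At resolution 2.0 macrophage-like cells of all libraries shared cluster 32 (73, 74 and 123 cells), with Lpcat2 at 95.0, 98.3 and 48.6 CPM and Pla2g7 at 849, 1232 and 3834.

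Across stages of the neutrophil lineage the members divided into those lower and those higher in later cells. From granulocyte precursors to granule-stage to late neutrophils, Gnpat in the library labelled WT went from 134 to 54.1 to 19.7 CPM, and in that labelled KO from 161 to 63.5 to 28.1. Agps went from 167 to 45.7 CPM in labelled WT, 177 to 50.8 in labelled Het and 243 to 60.4 in labelled KO. Far2 went from 51.4, 62.0 and 57.5 CPM in precursors to 1.20, 0.982 and 0.332 in late neutrophils. Far1 went the other way, from 150, 158 and 138 CPM to 295, 265 and 248. Pafah1b2 was also lower, from 118, 140 and 118 CPM to 44.7, 50.7 and 53.2. The order of stages was the same in all 3 libraries for these 5 genes.

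**Figure D4:**
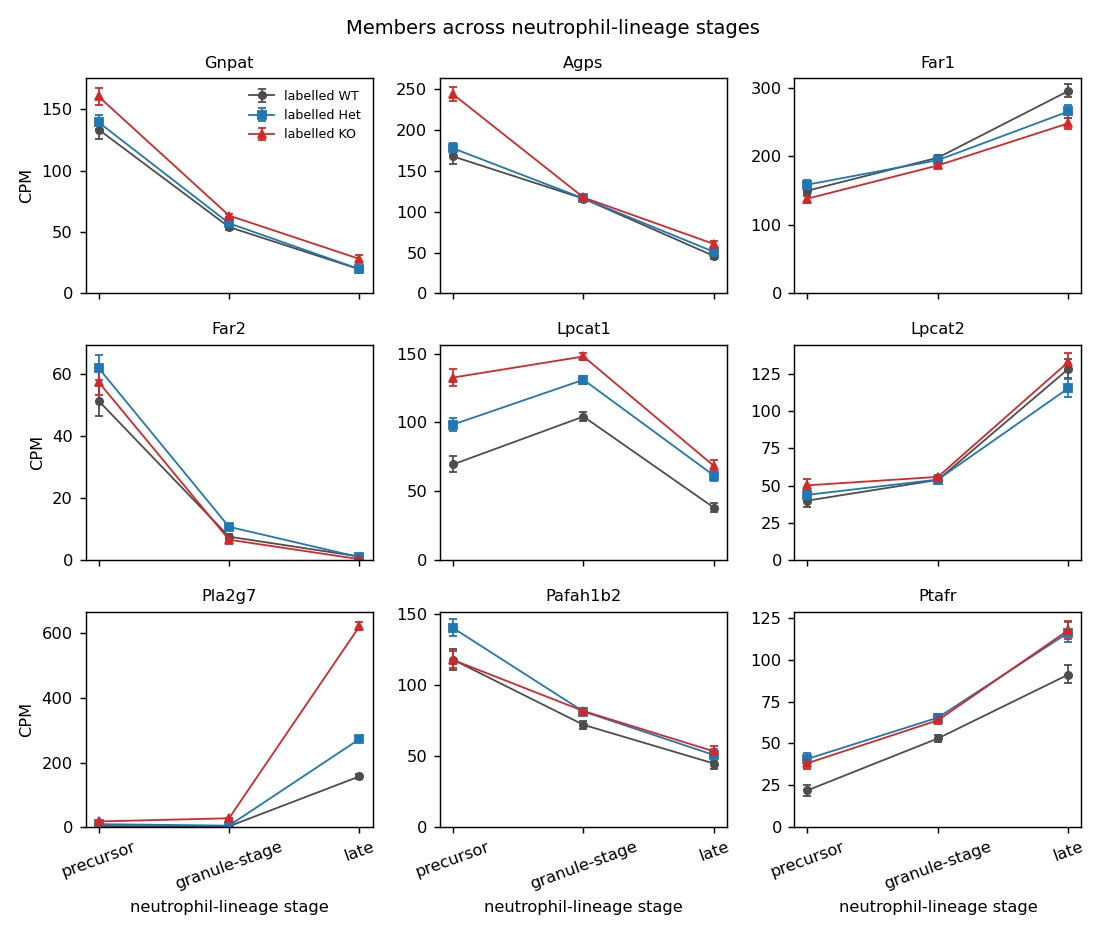
CPM of each gene in granulocyte precursor, granule-stage and late neutrophil-like cells, 1 line per library, with 95% Poisson intervals. Gnpat, Agps, Far2 and Pafah1b2 are lower, and Far1, Lpcat2, Pla2g7 and Ptafr higher, in late neutrophils than in precursors in each library. Lpcat1 peaks at the granule stage, with labelled WT at 104 CPM and labelled KO at 148.

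Lpcat2, Ptafr and Pla2g7 were higher in late neutrophils than in precursors. Lpcat2 went from 39.9, 43.8 and 50.1 CPM in precursors to 128, 115 and 133, and Ptafr from 21.9, 40.7 and 38.1 CPM to 91.1, 116 and 118. In late neutrophils labelled KO was 1.15-fold above labelled Het for Lpcat2 and 1.01-fold for Ptafr. Lpcat1 was highest at the granule stage, at 104, 131 and 148 CPM, and its order was WT, Het, KO at each stage. A Ptafr UMI was seen in 24.3%, 30.2% and 29.3% of late neutrophils after thinning, against 1.05%, 0.589% and 0.396% of B-lineage cells.

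Upstream sequences of Ptafr, Lpcat2 and Pla2g7 are shown because, of the genes that make, break or receive PAF, these were highest in late neutrophils among the 3 stages. The sequences are from RefSeq (GRCm38.p6, plus strand, 5′ to 3′). Each begins 250 bases before the RefSeq start and stops at that start or before the first base of any annotated exon. They are chr4:132563817-132564066 for Ptafr, chr8:92855083-92855223 for Lpcat2 and chr17:43568201-43568268 for Pla2g7. Ptafr is shown up to its RefSeq start. For Lpcat2 and Pla2g7 the bases next to that start were left out. The RefSeq start used for Pla2g7 and all bases shown for it lie inside the GENCODE span given above, which begins at an earlier start. Capitals mark matches to GAGGAA, a core bound by the myeloid factor PU.1, or to TTNCNNAA, a C/EBP-like pattern, searched on both strands.
Ptafr: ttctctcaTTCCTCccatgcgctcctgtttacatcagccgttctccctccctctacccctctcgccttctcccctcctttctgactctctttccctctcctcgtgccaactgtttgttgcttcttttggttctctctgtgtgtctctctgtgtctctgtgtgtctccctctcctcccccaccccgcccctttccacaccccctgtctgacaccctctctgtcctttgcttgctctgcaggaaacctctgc
Lpcat2: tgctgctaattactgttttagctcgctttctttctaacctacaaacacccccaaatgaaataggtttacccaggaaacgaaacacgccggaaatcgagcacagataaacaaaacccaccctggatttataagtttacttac
Pla2g7: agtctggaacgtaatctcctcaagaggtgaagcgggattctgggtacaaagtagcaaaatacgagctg
Ptafr held 1 GAGGAA match, on the minus strand, and 0 of TTNCNNAA. The parts shown for Lpcat2 and Pla2g7 held 0 of either. The bases next to their RefSeq starts were not searched, so the 3 genes cannot be contrasted by these matches. Of the 32851 mouse promoters compared, 23.2% held GAGGAA in the 250 bases before the start. In the first 141 of these bases 14.0% held it, and in the first 68, 6.76%. TTNCNNAA stood in 36.9%, 25.1% and 13.1%. A match is a description and says nothing of binding.

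Pla2g7 in late neutrophils was at 157, 273 and 622 CPM, with labelled KO 3.96-fold (3.77 to 4.16) and 2.28-fold (2.19 to 2.37) above the controls. At the granule stage it was at 2.17, 4.25 and 27.1 CPM, 12.5-fold (10.1 to 15.7) and 6.39-fold (5.63 to 7.27) above them. After thinning, 0.676%, 0.831% and 6.86% of granule-stage cells had a Pla2g7 UMI, so labelled KO alone was above the share in B-lineage cells. In late neutrophils the thinned shares were 18.9%, 30.4% and 60.6%. Thinning left out 130, 106 and 101 of the 1934, 1298 and 1379 late neutrophils, those with the fewest UMIs. The clusters 19 and 20, described next, were shallow and high in Pla2g7. How many of their cells were left out in each library was not counted, so these shares may not compare like sets of cells.

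The libraries were not that far apart in clusters 19 and 20. These 2 clusters had the highest CPM of Csf3r and Cxcr2 among late clusters, and their cells were at 0.218 and 0.222 of their libraries' median depth. Pla2g7 was at 2469 CPM in cluster 19 of the library labelled KO (2398 to 2541) and at 2341 and 2178 CPM in cluster 20 of the libraries labelled WT and Het (2147 to 2548 and 2087 to 2273). These cells made up 29.7% of late neutrophils in the library labelled KO (cluster 19) but 5.43% and 21.1% in the controls (cluster 20). In the other late clusters, labelled WT and Het were at 16.4 and 33.9 CPM in cluster 2 and at 300 and 420 in cluster 11, and labelled KO was at 361 in cluster 13. Both the levels within clusters and the shares of the clusters differed between the libraries.

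**Figure D5:**
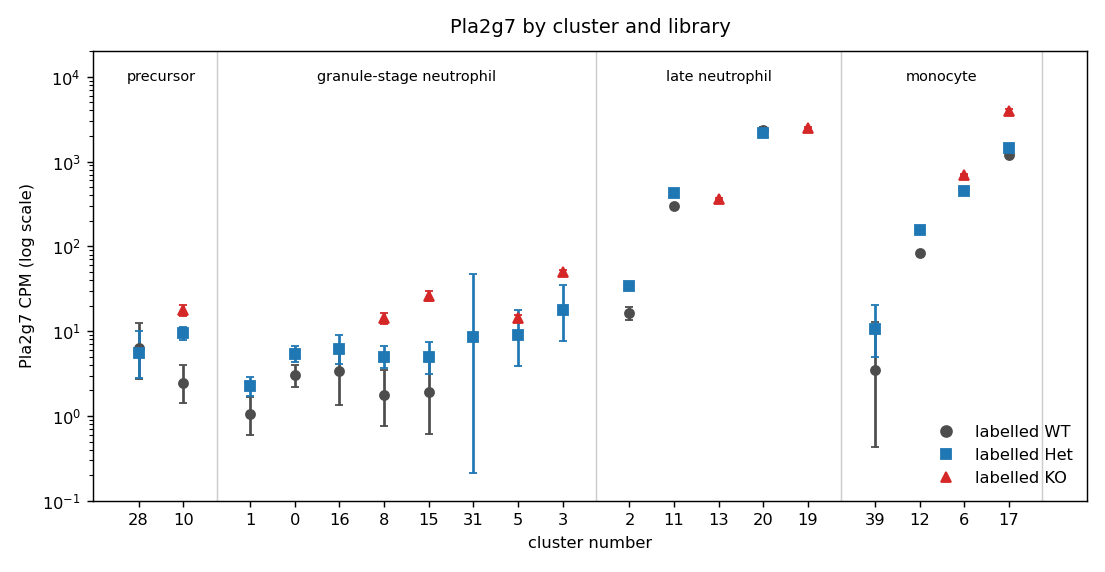
Pla2g7 CPM on a log axis in each cluster of the neutrophil lineage and of monocyte-like cells, 1 point per library with at least 20 cells and at least 1 UMI there, with 95% Poisson intervals. Labelled KO lies above the controls in clusters 8, 10, 15 and 17, which all 3 libraries share, while clusters 19 and 20 lie at nearly the same level.

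In the 10 clusters with at least 20 cells of each library, Pla2g7 was highest in labelled KO in 9, and the exception was B-lineage cluster 9. In granule-stage cluster 8 it was at 1.76, 4.96 and 14.3 CPM, and in granule-stage cluster 15 at 1.91, 4.99 and 25.9. In monocyte-like cluster 17, which had 31 cells of labelled KO, it was at 1179, 1447 and 3965 CPM. Labelled KO was highest in 8 of the 10 clusters for Gnpat and for Agps, in 6 for Lpcat1 and in 5 for Pafah1b2. It was highest in 4 for Far1, in 3 for Far2 and for Ptafr, and in 2 for Lpcat2. At resolution 2.0 labelled KO was highest in 12 of 14 such clusters for Pla2g7 and for Gnpat, and in 10 for Lpcat1. It was highest in 6 for Agps, and in 4 each for Far1, Far2, Lpcat2, Pafah1b2 and Ptafr. The share of all genes highest in labelled KO in these clusters was not computed, so the counts have no background beside them. Among monocyte-like cells, Pla2g7 was higher in the clusters with less Top2a, a gene of dividing cells: at a finer resolution, cells of labelled KO were at 405 CPM in cluster 18 and 1424 in cluster 20, where Top2a was at 601 and 68.9 CPM. The controls showed the same order at the main resolution, with labelled WT at 83.5 CPM in cluster 12 and 1179 in cluster 17, where Top2a was at 656 and 19.7.

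Ptafr in monocyte-like cells was lower in labelled KO than in both controls, at 53.0, 66.0 and 41.7 CPM, 0.786-fold (0.716 to 0.862) and 0.631-fold (0.584 to 0.682) of the controls. It was not called, since labelled WT was within 1.5-fold. The clusters differ here too: Ptafr was at 38.8 and 45.7 CPM in the control cluster 12, 40.3 in cluster 6 of labelled KO, and 147, 156 and 173 in cluster 17. Labelled KO had 2.54% of its monocyte-like cells in cluster 17 against 26.7% and 34.5%.

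Because class shares also differed, levels over all cells were recomputed with each class at the same share of cells in every library. Pla2g7 was then at 58.7, 90.3 and 194 CPM, 3.31-fold and 2.15-fold above the controls. In plain sums of UMIs over the same cells the folds were 4.03 and 2.77. The recomputed levels weight each class by cells and the plain sums by UMIs. The change in fold therefore mixes class shares with the depth of the classes. Lpcat1 was at 78.6, 100.2 and 113.5 CPM, and Far2 at 9.77, 14.8 and 9.57. Of the other 6 genes, the ratios of labelled KO to either control lay between 0.918 and 1.22.

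Genes whose levels followed each member most closely were ranked over 30 sums of 10 classes in 3 libraries, which share library and depth. For Pla2g7 they were Atp6ap1, an accessory subunit of the vacuolar proton pump (r = 0.904), Sat1 (r = 0.898), Npc1, the lysosomal cholesterol exporter (r = 0.883), Soat1, which esterifies cholesterol (r = 0.875), and Mospd2 (r = 0.874). For Lpcat2 they included the lysosomal mannosidase gene Man2b1 (r = 0.897), Hsd17b11, Csf2rb and Id1, and for Ptafr they were Tmem63a (r = 0.856), Spi1, which encodes PU.1 (r = 0.833), the NADPH oxidase gene Ncf1, Nlrx1 and Fgd4.

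For the other genes of ether lipid metabolism, 18 of 19 listed symbols were found and 14 had enough UMIs over all cells. The rule called 2.93% of all genes higher and 15.8% lower there. Tmem86a, a lysoplasmalogenase family member, was called higher (15.6, 16.1 and 24.6 CPM) and Plpp2, a lipid phosphatase, lower (14.1, 10.4 and 4.30 CPM). Their median log2 ratios were -0.15 and 0.03 against labelled WT and Het. Of 10 other PAF genes, 9 had enough UMIs, 0 were called higher and 3 lower, against the same shares of all genes. These were Pafah1b3, the partner catalytic subunit of Pafah1b2 (151, 133 and 55.1 CPM), Pla2g15, a lysosomal phospholipase (43.3, 38.3 and 24.9 CPM), and Pla2g6, a calcium-independent phospholipase (9.36, 9.94 and 4.90 CPM). Their medians were -0.11 and -0.22. Within B-lineage cells, where Pafah1b3 was highest, it was at 1006, 1078 and 1157 CPM, and those cells made up 20.2%, 16.1% and 11.2% of the cells kept. It was called lower within the neutrophil lineage (6.02, 7.10 and 3.72 CPM) and within basophil- and mast-like cells (146, 138 and 87.8 CPM). The part of these shares in the Pafah1b3 result was not tested.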

How the data were processed

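Gene expression was measured with gene-specific probes in fixed single cells of 3 libraries. Per the submitters' processing notes, the authors used Cell Ranger 7.0.0 and the genome mm10. The deposited values are whole-number UMI counts of each gene and barcode, not normalised, per the file headers and the values. The settings of that tool, and how many probes a gene had, are not stated in the labels, so CPM is not compared between genes. Cells of all libraries were clustered in 1 space with no batch correction, as no annotation of the cells was used.

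Scrublet, run on each library in scanpy 1.11.5, marked 273, 186 and 298 barcodes as doublets, which were left out of classes, but not of sums over all cells. Clusters came from 2000 variable genes (without the 9 genes, Pex2 and sex-linked genes), 40 principal components, 20 neighbours and Leiden at resolution 1.0 (leidenalg 0.10.2), with mixed or unnamed clusters of at least 60 cells split at 0.5, giving 44 clusters. A cluster was named when at least 2 markers of a type were among its top 10 genes and at least 3 were detected. UMIs were summed per library and class. A gene entered with a mean of at least 5 CPM and 30 UMIs. Levels carry exact Poisson, ratios exact conditional binomial and shares exact Clopper-Pearson intervals at 95%, with 0.5 counts added for log2 ratios. Thinning to 3000 UMIs left out 770, 297 and 333 of all barcodes. Only for scaling, edgeR 4.0.16 gave TMM factors and DESeq2 1.42.0 its size factors (R 4.3.3). Python 3.11.15, numpy 2.4.6, pandas 2.3.3 and scipy 1.17.1 were used.

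The members and gene lists were chosen with earlier results of these data known. All 9 members are named with values, other pathway genes where they passed the call rule over all cells, and like genes as the 5 with the highest Pearson r of log2 CPM (1 added) among those with a mean of at least 20 CPM. Gene positions came from GENCODE on GRCm38. Not every like gene is reported here. Protein sequences were not used here.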

Additional observations from a re-analysis of the deposited data

Results flagged for a closer look

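Far1 and Far2 stood above both controls in some classes of the library labelled KO and below both in others, in each case with counting intervals that exclude 1. The difference between classes was not tested, since each genotype had 1 library. Far1 in the library labelled KO was 1.24-fold of labelled WT and 1.249-fold of labelled Het in B-lineage cells, and 1.26-fold and 1.19-fold in erythroid-like cells. It was 0.808-fold and 0.776-fold of them in monocyte-like cells, and 0.894-fold and 0.957-fold in the neutrophil lineage. With TMM scaling the monocyte log2 ratios stayed below 0 at -0.16 and -0.25, and those of the neutrophil lineage turned to 0.06 and 0.22. Far2 was 3.75-fold and 2.42-fold of the controls in erythroid-like cells on 10, 64 and 82 UMIs, and 0.891-fold and 0.597-fold in the neutrophil lineage, where TMM scaling put it at 0.06 and -0.46 on the log2 scale.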

How the results depend on the processing

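No paired analysis was possible because each genotype had 1 library. Over all cells 1 member was called higher and 0 lower in the library labelled KO, and with TMM scaling 2 were called higher, Lpcat1 and Pla2g7. Of the pairs of a member and a class, 7 were called higher and 0 lower. With cells thinned to 3000 UMIs these were 3 and 1 (Lpcat1 in erythroid-like and Pla2g7 in monocyte-like and neutrophil-lineage cells higher, Ptafr in monocyte-like cells lower). At a fold of 2, 4 were higher, and at a fold below 1.5, the lower of the alternatives, 1 was lower (Ptafr in monocyte-like cells). A minimum of 40 cells, which adds macrophage-like cells, was chosen after seeing the data. It added 1 higher call, Pla2g7, and 1 lower, Lpcat2. Pla2g7 in B-lineage cells against labelled Het reversed from 0.67 to -0.51 (log2) after thinning. The causes were not tested, beyond that thinning leaves fewer UMIs and fewer cells. It left out 551, 72 and 130 of the 1883, 1261 and 887 B-lineage cells. Of the B-lineage cells kept, 11, 18 and 10 had a Pla2g7 UMI. Of 720 single log2 ratios under alternatives, 82 had another sign than the main value. The log2 ratios of Pla2g7 over all cells ranged from 1.73 to 2.31 against labelled WT and from 1.10 to 1.81 against labelled Het. The gate on single cells left basophil- and mast-like cells under 50 cells in 1 library. In sums of classes with under 100 UMIs of a member, depth limits what can be seen.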
